A study of Homo sapiens with 6 samples.

Results

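The genes described here are 40 listed symbols of the unfolded protein response and of protein folding in the endoplasmic reticulum (ER). They were taken by name from a count table of 46287 rows and cover ER stress sensors, chaperones, protein disulfide isomerases and genes of ER-associated degradation. Of the 40, 39 had a row. VIMP, an older symbol of SELENOS, had none, and SELENOS was counted once under its present name. DERL3 had 0 counts in all 6 libraries, where a floor of 3 counts per library corresponds to 0.177 to 0.261 CPM, the count scaled to the library total. The other 38 passed the filter on low counts and were tested among 12293 genes.

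The cells were HaCaT, a line of human epidermal keratinocytes that became immortal spontaneously. In 3 libraries the cells carried a homozygous SDR42E1 knockout made with CRISPR/Cas9, and 3 libraries came from wild-type HaCaT cells that served as controls. Both groups were grown in the same serum-containing high-glucose medium, with no stress-inducing agent named in the labels, and total RNA was sequenced. SDR42E1 encodes a short-chain dehydrogenase/reductase, and the study asked how its loss alters the transcriptome in connection with vitamin D. The labels call the 3 libraries of each group biological replicates. They do not say whether the knockout libraries came from 1 edited clone or several, so the p-values speak of the spread between these libraries and not between clones.

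Library totals were 11504473 to 13454544 counts in knockout and 12094896 to 16928201 in control libraries. SDR42E1 had 268, 265 and 237 counts in knockout libraries, against 650, 822 and 601 in control libraries, and fell by 1.16 on the log2 scale (SE 0.08; edgeR's quasi-likelihood test over all genes, adjusted p = 2.69e-14). A gene-level count does not show the edit itself. The nearest 20 tested genes around SDR42E1 on chromosome 16 had a median log2 fold change of -0.65, with 20 of 20 below 0. SDR42E1 lay 0.51 below that median, and the part of chromosome position in its fall was not tested. All 10 keratinocyte markers checked were detected, and 5 rose and 2 fell. KRT5 and PKP1 fell by 0.66 and 0.44 on the log2 scale, while ITGB4, KRT17 and ITGA6 rose by 0.76, 0.66 and 0.51. The 10 had a summed level of 8980 to 9280 CPM in knockout and 8720 to 9340 CPM in control libraries. Summed fibroblast markers lay at 1.12 to 2.13 CPM in knockout and 4.30 to 6.19 CPM in control libraries, with PDGFRA and DCN at 0. Of these markers COL3A1 fell, with 0, 0 and 4 counts in knockout and 31, 56 and 20 in control libraries (adjusted p = 1.01e-06). COL1A1 did not pass the threshold. Of 4 leukocyte markers CD3E and MS4A1 were at 0. Melanocyte markers (TYR at 0) summed to 19.5 to 23.5 CPM in knockout and 24.1 to 24.9 CPM in control libraries. Most of that sum was MITF, at a mean of 19.2 and 21.3 CPM, which did not pass the threshold. Endothelial markers summed to 1.92 to 2.66 and 3.65 to 3.93 CPM in knockout and control libraries. The 4 leukocyte markers summed to 8.05 to 8.39 CPM in knockout and 4.89 to 7.58 CPM in control libraries. Nearly all of that sum was CD68, at a mean of 8.18 and 6.27 CPM, which did not pass the threshold. Of 5 plasma cell markers, TNFRSF17 and IRF4 were at 0, and the sum, nearly all of it SDC1, which keratinocytes also express, was 341 to 371 CPM in knockout and 282 to 290 CPM in control libraries. The part of these differences in the results was not tested. In bulk RNA, fewer cells of a type and less RNA per cell cannot be told apart.

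As background, secreted and membrane proteins enter the ER through the SEC61 channel and fold there with the help of chaperones and disulfide isomerases. When unfolded proteins accumulate, the membrane sensors IRE1 (gene ERN1), ATF6 and PERK (gene EIF2AK3) start the unfolded protein response. IRE1 splices XBP1 mRNA, ATF6 is cut by Golgi proteases into a transcription factor, and PERK phosphorylates eIF2alpha, which slows translation. Their targets refold proteins or retrotranslocate them for degradation, and keratinocytes, which secrete lipids and proteins when they differentiate, are known to use this pathway. Gene-level counts cannot separate spliced from unspliced XBP1 mRNA.

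Factors of this pathway bind the ER stress response element ERSE (CCAAT, then 9 unspecified bases, then CCACG), the element ERSE-II (ATTGG, 1 unspecified base, CCACG) and the unfolded protein response element UPRE, which is TGACGTGG. Promoters of 36 members were found in the RefSeq table (GRCh38.p14), each 250 bases before to 50 bases after the annotated start. An exact ERSE on either strand lay in 7 of the 36, an ERSE-II in 3 and a UPRE in 2. Over all 27305 promoters of that table the shares were 0.0806%, 0.0549% and 0.795%, against 19.4%, 8.33% and 5.56% of the member promoters. Over the 9870 promoters of tested genes they were 0.142%, 0.111% and 0.942%. The members were listed as genes of the pathway whose factors bind these elements, so their higher shares are a description and no independent result. The sequences below run from 250 bases before the start to the base before it and are shown because they hold these elements, except that of ERN1, the member with the largest rise, which held none. Capitals mark matches on either strand, and in HYOU1 the UPRE overlaps an ERSE-II.
HSPA5 (chr9:125241344-125241593, minus strand): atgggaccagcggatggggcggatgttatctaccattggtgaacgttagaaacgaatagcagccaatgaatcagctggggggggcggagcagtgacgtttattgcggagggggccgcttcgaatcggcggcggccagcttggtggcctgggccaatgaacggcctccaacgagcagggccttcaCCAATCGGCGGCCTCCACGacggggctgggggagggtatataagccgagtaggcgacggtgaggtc
HSP90B1 (chr12:103930160-103930409, plus strand): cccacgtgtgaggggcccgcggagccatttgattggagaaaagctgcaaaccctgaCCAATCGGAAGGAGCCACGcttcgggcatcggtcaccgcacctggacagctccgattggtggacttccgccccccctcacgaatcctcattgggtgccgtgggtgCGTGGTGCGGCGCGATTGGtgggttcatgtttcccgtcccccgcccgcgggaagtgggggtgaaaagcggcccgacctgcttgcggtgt
XBP1 (chr22:28800570-28800819, minus strand): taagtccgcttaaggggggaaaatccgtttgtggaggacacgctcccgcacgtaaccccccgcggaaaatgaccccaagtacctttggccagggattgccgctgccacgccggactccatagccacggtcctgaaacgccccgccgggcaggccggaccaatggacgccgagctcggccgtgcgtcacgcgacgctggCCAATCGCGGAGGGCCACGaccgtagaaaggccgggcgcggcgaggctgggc
HYOU1 (chr11:119057206-119057455, minus strand): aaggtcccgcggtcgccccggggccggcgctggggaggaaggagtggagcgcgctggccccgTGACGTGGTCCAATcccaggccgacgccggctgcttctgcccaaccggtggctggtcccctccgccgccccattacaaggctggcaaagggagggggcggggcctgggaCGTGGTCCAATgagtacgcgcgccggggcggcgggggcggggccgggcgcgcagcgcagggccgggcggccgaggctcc
HERPUD1 (chr16:56931892-56932141, plus strand): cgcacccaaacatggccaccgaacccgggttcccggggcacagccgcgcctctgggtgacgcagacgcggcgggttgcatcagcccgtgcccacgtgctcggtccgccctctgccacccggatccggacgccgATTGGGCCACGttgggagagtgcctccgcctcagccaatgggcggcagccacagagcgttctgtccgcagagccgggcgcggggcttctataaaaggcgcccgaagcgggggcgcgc
DNAJC10 (chr2:182716007-182716256, plus strand): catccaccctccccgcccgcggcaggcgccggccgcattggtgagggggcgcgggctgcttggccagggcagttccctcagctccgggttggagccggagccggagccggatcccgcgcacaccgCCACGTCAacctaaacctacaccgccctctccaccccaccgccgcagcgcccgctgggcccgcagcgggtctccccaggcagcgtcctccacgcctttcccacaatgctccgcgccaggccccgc
ERN1 (chr17:64130145-64130394, minus strand): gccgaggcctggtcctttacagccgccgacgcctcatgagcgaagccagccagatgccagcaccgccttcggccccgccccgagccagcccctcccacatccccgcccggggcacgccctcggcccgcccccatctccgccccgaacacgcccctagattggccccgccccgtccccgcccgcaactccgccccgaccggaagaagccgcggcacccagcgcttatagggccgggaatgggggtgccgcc

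The elements did not go with 1 direction of change. Among the 11 members with any match, 4 rose, 3 fell and 4 did not pass the threshold, and among the 25 with a promoter and no match, 11 rose, 5 fell and 9 did not pass. Over all tested genes 24.6% rose and 25.8% fell. By element, 2 of the 7 members with an ERSE rose, 2 fell and 3 did not pass. Among the 3 with an ERSE-II, HYOU1 rose, HERPUD1 fell and 1 did not pass. The 2 with a UPRE, DNAJC10 and HYOU1, rose by 0.37 and 0.22 on the log2 scale. Counts of 2 to 7 members are too small to tie an element to a direction. A match is a string of letters and not a shown binding site.

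Of the 38 tested members, 16 were higher in knockout cells, 8 were lower and 14 did not pass the threshold (adjusted p under 0.05 over all genes). Of all 12293 tested genes, 24.6% were called higher, 25.8% lower and 50.4% in either direction, against 42.1%, 21.1% and 63.2% of the members. Most members are abundant, and small changes pass more readily in abundant genes. At a mean log2 CPM of 5 or more, a limit chosen after the values were seen, there were 6378 genes, of which 34.1% were called higher and 24.0% lower, against 43.3% and 26.7% of the 30 members above that level. In 2 of 38 members (5.26%), ERN1 and HERPUD1, the threshold was passed with at least a 1.5-fold change, against 15.4% of all genes. That share covers genes of every level tested and was not taken for abundant genes alone. The median absolute log2 fold change was 0.216 over the members and 0.233 over all genes. The median log2 fold change was 0.11 over the members and -0.00 over all tested genes. CPM ranges of knockout and control libraries did not overlap in 25 members (65.8%), against 56.5% of all genes. Together the members took 0.779% to 0.798% of the counts in knockout libraries and 0.758% to 0.762% in control libraries, ranges that lie apart.

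**Figure D1:**
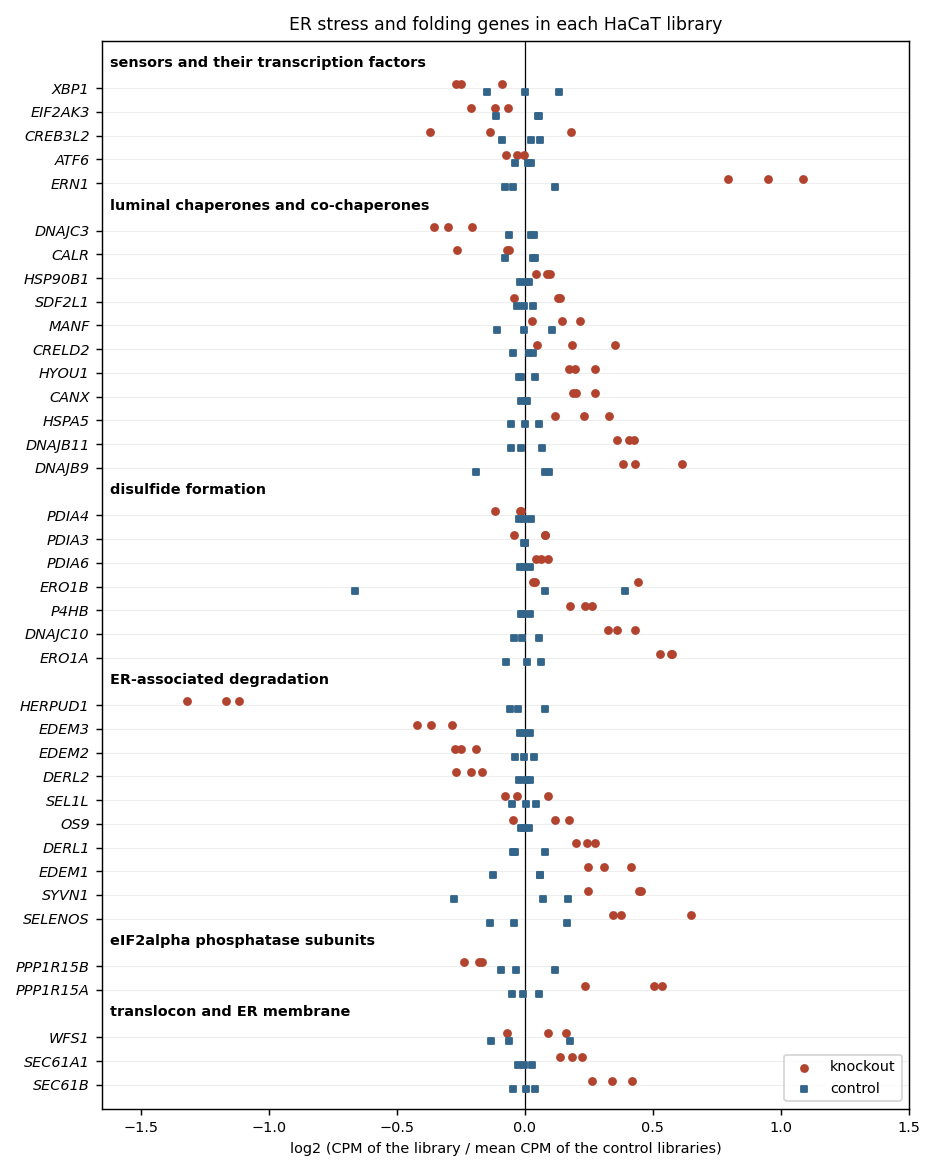
Each point is 1 library, placed by the log2 ratio of its CPM to the mean CPM of the control libraries, with knockout (circles) above control (squares) for the 38 tested genes grouped by role. ERN1 stands apart to the right and HERPUD1 to the left, while most other knockout points lie within 0.5 of the control mean.

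Of the sensors, ERN1 changed and the other sensor genes did not pass the test. ERN1 (chr17:64039142-64130819, minus strand, GRCh38), the kinase and endoribonuclease that splices XBP1, had 22.6, 25.1 and 27.6 CPM in knockout libraries, against 12.3, 14.1 and 12.6 CPM in control libraries. Every knockout library was above every control library, and the level was 1.92-fold higher (log2 0.94, SE 0.11, adjusted p = 2.99e-09). ATF6 had 120, 122 and 116 CPM in knockout libraries and 123, 119 and 124 CPM in control libraries, with overlapping groups (log2 -0.03, SE 0.05, adjusted p = 0.623). EIF2AK3 had 28.8, 27.8 and 26.1 CPM in knockout libraries and 27.9, 31.2 and 31.3 CPM in control libraries (log2 -0.13, SE 0.09, adjusted p = 0.226). These groups overlapped as well. CREB3L2, a membrane-bound transcription factor related to ATF6, averaged 31.6 ± 6.11 CPM in knockout and 33.6 ± 1.80 CPM in control libraries (SD, n = 3 each; log2 -0.09, adjusted p = 0.486). It passed the threshold without knockout replicate 3 (log2 -0.24, adjusted p = 0.0371).

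XBP1, the transcription factor made active by IRE1, did not follow ERN1. It had 97.2, 86.9 and 85.7 CPM in knockout libraries, against 113, 103 and 93.4 CPM in control libraries. Knockout replicate 1 lay above control replicate 3, so the groups overlapped. XBP1 fell by 0.20 on the log2 scale (SE 0.07, adjusted p = 0.0112), but did not pass without control replicate 1 (log2 -0.13, adjusted p = 0.102), knockout replicate 2 (adjusted p = 0.0706) or knockout replicate 3 (adjusted p = 0.0622).

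Of 11 luminal chaperones and co-chaperones, 5 rose (45.5%), 2 fell (18.2%) and 4 did not pass, against 24.6% and 25.8% of all genes. The median log2 fold change of the 11 was 0.20. HSPA5, the central ER chaperone BiP, had 229, 248 and 266 CPM in knockout libraries, against 211, 203 and 219 CPM in control libraries. The groups lay apart by a small margin, and the rise was 1.17-fold (log2 0.23, SE 0.05, adjusted p = 0.000332). Its co-chaperones of the DNAJ family, which stimulate its ATPase, moved both ways. DNAJB9 had 17.2, 14.7 and 15.1 CPM in knockout libraries, against 11.9, 9.84 and 12 CPM in control libraries (log2 0.48, SE 0.13, adjusted p = 0.00161). DNAJB11 had 131, 133 and 127 CPM in knockout libraries, against 104, 95.6 and 98.2 CPM in control libraries (log2 0.40, SE 0.05, adjusted p = 8.8e-08). Both were higher in every knockout library. DNAJC3, which is also an inhibitor of PERK, had 125, 112 and 117 CPM in knockout libraries, against 146, 138 and 147 CPM in control libraries. All 3 knockout libraries were lower, and DNAJC3 fell by 0.28 on the log2 scale (SE 0.05, adjusted p = 2.82e-05).

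The nucleotide exchange factor HYOU1 rose by 0.22 on the log2 scale (333 ± 11.9 CPM in knockout and 287 ± 6.68 CPM in control libraries, adjusted p = 0.00022). The lectin chaperone genes CANX and CALR, whose proteins bind newly made glycoproteins, were the most abundant members per length with HSP90B1, the ER form of HSP90. Levels per kb of the longest coding transcript were 349.5 CPM in knockout and 299.8 CPM in control libraries for CANX, 397 and 434 for CALR, and 301 and 285 for HSP90B1. CANX rose (log2 0.22, SE 0.04, adjusted p = 6.75e-05). CALR fell by 0.13 (SE 0.05, adjusted p = 0.0345), with overlapping groups at 688 to 791 CPM in knockout and 784 to 850 CPM in control libraries. CALR did not pass with DESeq2 (adjusted p = 0.0523), nor without control replicate 1 (0.12), control replicate 2 (0.135) or knockout replicate 3 (log2 -0.06, adjusted p = 0.198). HSP90B1 stood at 0.08 (log2, adjusted p = 0.149) and passed without knockout replicate 3 (adjusted p = 0.0324). SDF2L1 and MANF, luminal proteins known to be induced by ER stress, had values of 0.08 and 0.13 that did not pass (adjusted p = 0.51 and 0.173). CRELD2, another stress-induced luminal protein, lay at the threshold (log2 0.20, SE 0.09, adjusted p = 0.0521) and passed without knockout replicate 3 (log2 0.28, adjusted p = 0.0127).

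Among 7 genes of disulfide formation, 3 rose (42.9%), 0 fell and 4 did not pass, against 24.6% and 25.8% of all genes. ERO1A, the oxidase that recharges protein disulfide isomerase, had 265, 258 and 265 CPM in knockout libraries, against 179, 170 and 186 CPM in control libraries. The groups were far apart relative to their spread, and the rise was 1.47-fold (log2 0.56, SE 0.05, adjusted p = 3.76e-12). Its paralogue ERO1B was the member with the lowest counts among those tested, with 35, 40 and 46 counts in knockout and 54, 54 and 23 counts in control libraries (log2 0.17, SE 0.27, adjusted p = 0.632). DNAJC10, a disulfide reductase that aids degradation, had 209, 195 and 199 CPM in knockout libraries, against 161, 151 and 154 CPM in control libraries. It was higher in every knockout library (log2 0.37, SE 0.05, adjusted p = 7.15e-08). P4HB, the classical protein disulfide isomerase, rose by 0.22 (adjusted p = 7.48e-05). The isomerase genes PDIA3, PDIA4 and PDIA6 had log2 fold changes of 0.04, -0.05 and 0.07 and did not pass (adjusted p = 0.511, 0.403 and 0.233).

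Genes of ER-associated degradation had 4 higher, 4 lower and 2 not past the threshold of 10 tested. Directions were about as evenly split over all tested genes, with 24.6% higher, 25.8% lower and 50.4% called. HERPUD1 (chr16:56932048-56944863, plus strand, GRCh38), a membrane scaffold of the degradation complex and a known target of the response, had the largest change of all members. It had 337, 333 and 322 counts in knockout libraries, against 862, 1049 and 822 counts in control libraries. In CPM these were 29.1, 25.3 and 28.2 in knockout libraries and 62.0, 60.7 and 66.7 in control libraries. HERPUD1 fell by 1.20 on the log2 scale (SE 0.08, adjusted p = 1.08e-15), a change of -56.4%. Log2 fold changes of the complex's other parts differed from it in sign or size. SEL1L, the adaptor of the ubiquitin ligase, had a value of -0.00 (SE 0.05, adjusted p = 0.986). SYVN1, the ligase HRD1, had 11.0, 12.7 and 12.6 CPM in knockout libraries, against 7.63, 9.72 and 10.4 CPM in control libraries (log2 0.39, SE 0.14, adjusted p = 0.0215). SYVN1 did not pass with DESeq2 (adjusted p = 0.077), nor without control replicate 1 (0.139), knockout replicate 2 (0.0755) or knockout replicate 3 (0.0592). Its annotated exons share 398 bases with FAU on the same strand, a gene with 27069 counts over the libraries that also rose (log2 0.29), and whether reads of FAU were counted to SYVN1 was not tested.

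The mannosidase-like EDEM genes, whose products mark misfolded glycoproteins for disposal, went in opposite directions. EDEM1 had 66.0, 68.8 and 74.1 CPM in knockout libraries, against 51.0, 57.9 and 57.8 CPM in control libraries (log2 0.32, SE 0.07, adjusted p = 0.000135). EDEM3 had 97.7, 93.9 and 104 CPM in knockout libraries, against 126, 124 and 128 CPM in control libraries. EDEM3 fell by 0.36 (SE 0.05, adjusted p = 9.28e-07) and EDEM2 by 0.23 (SE 0.07, adjusted p = 0.00424), with no overlap between groups in any of these genes. SELENOS, a selenoprotein that links the derlin proteins to the ATPase VCP, had 54.6, 66.1 and 53.4 CPM in knockout libraries, against 47.1, 38.3 and 40.8 CPM in control libraries. All knockout libraries were above all control libraries (log2 0.47, SE 0.09, adjusted p = 7.14e-05). The derlins, candidate parts of the retrotranslocation channel, moved apart: DERL1 rose by 0.24 (SE 0.06, adjusted p = 0.00136), and DERL2 fell by 0.22 (SE 0.07, adjusted p = 0.0097). The lectin OS9, which hands glycoproteins to the ligase, stood at 0.08 (log2, adjusted p = 0.183) and passed without knockout replicate 3 (log2 0.15, adjusted p = 0.0148).

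The regulatory subunits that direct protein phosphatase 1 to eIF2alpha also moved apart. PPP1R15A, the stress-induced subunit GADD34, had 63.8, 65.2 and 52.9 CPM in knockout libraries, against 44.8, 43.5 and 46.8 CPM in control libraries (log2 0.43, SE 0.08, adjusted p = 8.68e-06). PPP1R15B, the constitutive subunit, had 109, 114 and 113 CPM in knockout libraries, against 120, 126 and 139 CPM in control libraries. PPP1R15B fell by 0.19 on the log2 scale (SE 0.06, adjusted p = 0.00434), and did not pass without control replicate 3 (log2 -0.13, adjusted p = 0.0898). In both genes the groups lay apart.

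Within each library, 3 ratios of paralogues were set side by side. The log2 ratio of PPP1R15A to PPP1R15B was -0.89 ± 0.18 in knockout and -1.51 ± 0.07 in control libraries (SD, n = 3 each; exact two-sided permutation p = 0.1). That of DERL1 to DERL2 was 0.83 ± 0.08 in knockout and 0.38 ± 0.06 in control libraries (n = 3 each; exact permutation p = 0.1). Both reached the smallest p that 3 against 3 libraries allow, and adjusted over the 3 ratios it was 0.15. The ratio of ERO1A to ERO1B was 6.30 ± 0.23 in knockout and 5.98 ± 0.59 in control libraries (n = 3 each; exact permutation p = 0.4).

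The channel genes were higher. SEC61B, the small tail-anchored subunit, had 92.0, 97.0 and 87.2 CPM in knockout libraries, against 70.4, 74.8 and 72.9 CPM in control libraries (log2 0.34, SE 0.06, adjusted p = 1.12e-05). SEC61A1, the pore subunit, rose by 0.18 (414 ± 12.3 CPM in knockout and 365 ± 7.40 CPM in control libraries, adjusted p = 0.00119). In both the groups lay apart. WFS1, a membrane protein linked to ER calcium, had 8.24 ± 0.66 CPM in knockout and 7.89 ± 0.91 CPM in control libraries (log2 0.06, adjusted p = 0.795).

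**Figure D2:**
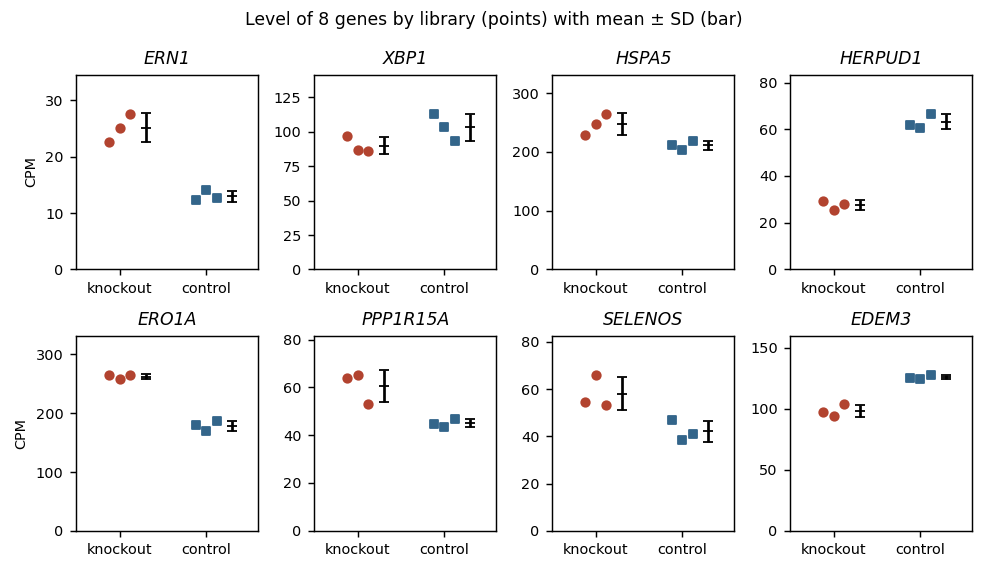
CPM of 8 members by library (points; knockout left of control), with mean ± SD beside them (n = 3 each) on axes that start at 0. ERN1 and HERPUD1 show wide gaps between the groups, ERO1A, PPP1R15A, SELENOS and EDEM3 smaller ones, HSPA5 a narrow one, and in XBP1 the groups overlap.

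The members' values were also set beside those of the genes around them. For each member the median log2 fold change of the nearest 20 tested genes, 10 on each side, was taken from GENCODE 29 positions (14 and 18 genes for SELENOS and EDEM1, which lie near chromosome ends). Around HERPUD1, on chromosome 16 like SDR42E1, the neighbours' median was -0.41 and 18 of 20 were below 0, and HERPUD1 lay 0.79 below that median. Around PPP1R15B, on chromosome 1, the median was -0.38 with 19 of 20 below 0, and PPP1R15B lay 0.19 above it. Around DERL2, on chromosome 17, the median was -0.21, and the difference of DERL2 from it was -0.01. EDEM3 lay 0.26 below the median of its 20 nearest genes (-0.10) but at that of its 40 nearest (-0.36). ATF6 stood at -0.03 beside neighbours at -0.22, with 14 of 20 below 0, and its 40 nearest had a median of -0.40. CALR and XBP1 were lower than neighbourhoods with medians of 0.18 and 0.05. ERN1, also on chromosome 17, lay 0.77 above its neighbours' median of 0.17. The part of chromosome position in these results was not tested.

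**Figure D3:**
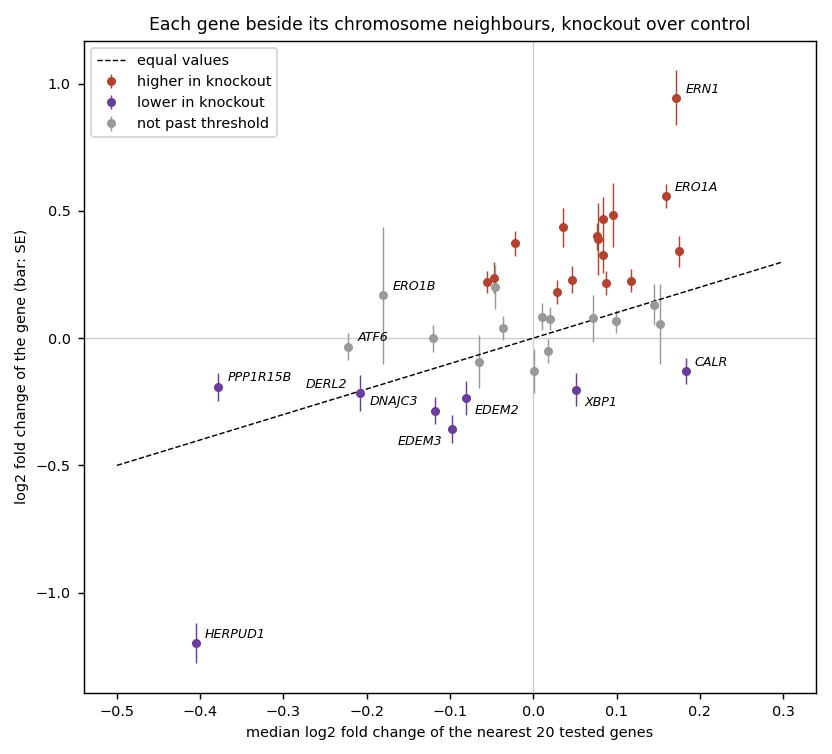
Log2 fold change (knockout over control, bar: SE) of each of the 38 tested members against the median of its nearest 20 tested genes; the dashed line marks equal values. HERPUD1 lies at -1.20 beside neighbours at -0.41, PPP1R15B lies above the line and DERL2 on it.

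Whether reads were counted by strand is not known from the labels, and several members share exon bases with a gene on the other strand. DERL2 shares 301 bases with MIS12, which fell (log2 -0.47, adjusted p = 4.78e-07), and SEC61A1 shares 344 with RUVBL1, which rose (log2 0.25, adjusted p = 6.55e-05). DERL1 and DNAJB11 overlap TBC1D31 and TBCCD1, which fell by 0.31 and 0.38 while these members rose. DNAJB9 overlaps THAP5 and PNPLA8, with values of 0.11 and -0.05 that did not pass. DERL3, which had 0 counts, shares 2923 bases with SMARCB1, which had 7920 counts over the libraries. Whether the strand setting bears on the 0 counts of DERL3 was not tested. Reads in the shared bases cannot be assigned without the strand setting.

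A wider list of 156 further genes of the pathway and of ER entry, modification and export was read beside the members. In the 150 that were tested there were 57 rises (38.0%) and 22 falls (14.7%), and 71 missed the threshold. Over all tested genes 24.6% rose and 25.8% fell, and at a mean log2 CPM of 5 or more 34.1% and 24.0%. In all, 52.7% of the list was called, near the 50.4% of all genes. The list with the highest share of rises was translocation and signal peptide processing, in which 17 of 25 rose, 1 fell and 7 did not pass, with a median log2 fold change of 0.24. Its smallest adjusted p-values belonged to BCAP31, an ER membrane escort protein (304 ± 16.0 CPM in knockout and 223 ± 4.20 CPM in control libraries, log2 0.45, adjusted p = 7.87e-10), to SEC61G, the remaining subunit of the SEC61 channel (140 ± 7.19 and 100.4 ± 1.87 CPM in knockout and control libraries, log2 0.48, adjusted p = 1.5e-09), and to SSR3, a subunit of the translocon-associated complex (log2 0.41, adjusted p = 2.98e-09). SSR2, of the same complex, was the gene that fell (log2 -0.19, adjusted p = 0.00228), on chromosome 1 beside neighbours with a median of -0.31. Over the 13 alternative settings 14 to 17 of these genes rose and 1 or 2 fell. By transcript length, looked at after these counts, the shortest class of tested genes (up to 2.19 kb) had a median of 0.03, and 8 of the 25 genes fall in it.

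A list of PERK-ATF4 genes holds outputs of this branch together with eIF2alpha itself and the other eIF2alpha kinases. Of its 15 tested genes, 5 were higher, 3 lower and 7 not past the threshold, against 24.6% higher and 25.8% lower over all genes. In all, 53.3% of this list was called, near the 50.4% of all genes. EIF2S1, the eIF2alpha subunit, rose (log2 0.38, SE 0.05, adjusted p = 4.48e-08), as did the eIF2alpha kinase genes EIF2AK4 (log2 0.21, adjusted p = 0.000294) and EIF2AK1 (log2 0.13, adjusted p = 0.0286) and the transcription factor gene ATF5 (log2 0.70, SE 0.21, adjusted p = 0.00543). DDIT4, an inhibitor of mTOR signalling, fell by 0.65 (SE 0.07, adjusted p = 4.02e-10), beside neighbours with a median of -0.26. The eIF2alpha kinase gene EIF2AK2 fell by 0.21 (adjusted p = 0.000885). ATF4, the transcription factor of this branch, had 372 CPM in knockout and 357 CPM in control libraries (log2 0.06, SE 0.05, adjusted p = 0.311). DDIT3, which encodes the stress factor CHOP, had 12.9 CPM in both groups (log2 -0.00, SE 0.13, adjusted p = 0.997). ATF3, another stress-induced transcription factor, had 26.6, 17.6 and 15.6 CPM in knockout libraries, against 31.0, 33.6 and 48.7 CPM in control libraries. Its groups lay apart and its value did not pass (log2 -0.92, SE 0.30, adjusted p = 0.0684). ASNS, the asparagine synthetase gene, rose by 0.17 (adjusted p = 0.0195), and TRIB3, a pseudokinase gene induced by ATF4, fell by 0.15 (adjusted p = 0.0386). CHAC1, SESN2, CEBPB and NFE2L2 had values of -0.25, -0.07, -0.14 and -0.11 that did not pass. ATF4, DDIT3, ATF3, ASNS, EIF2AK1, CHAC1, SESN2, CEBPB and NFE2L2 were picked out of the list after their values were seen.

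Of 9 tested genes in a list of the proteases that release ATF6, related membrane-bound factors and their partners, 1 was higher (11.1%), 3 were lower (33.3%) and 5 did not pass, against 24.6% higher and 25.8% lower over all genes. MBTPS1, the site-1 protease that makes the first cut in ATF6 and in SREBP proteins, had 59.3 ± 1.33 CPM in knockout and 122 ± 6.11 CPM in control libraries. MBTPS1 fell by 1.04 on the log2 scale (SE 0.06, adjusted p = 2.65e-17). It lies on the same arm of chromosome 16 as SDR42E1, where its nearest 20 tested genes had a median of -0.72 and 20 of 20 were below 0. The site-2 protease gene MBTPS2, named after its value was seen, stood at 0.15 (log2, SE 0.09, adjusted p = 0.174). CREB3L4 fell by 0.88 (SE 0.17, adjusted p = 5.55e-05), from 9.03 CPM in control to 4.91 CPM in knockout libraries. Its nearest 20 tested genes had a median of -0.18, with 18 of 20 below 0. ATF6B, the paralogue of ATF6, fell by 0.36 (SE 0.10, adjusted p = 0.00296), beside neighbours with a median of -0.115 and 13 of 20 below 0. CREB3, a membrane-bound transcription factor, rose by 0.34 (SE 0.09, adjusted p = 0.00152).

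Other folding and degradation genes moved in both directions. The median absolute log2 fold change was 0.206 over the further chaperone genes, 0.162 over the thioredoxin-fold genes and 0.078 over the other degradation genes, against 0.233 over all genes. Over all genes 24.6% rose and 25.8% fell. Of 19 further chaperone and glycoprotein folding genes, 5 rose (26.3%), 3 fell (15.8%) and 11 did not pass. The cyclophilin gene PPIB rose by 0.33 (adjusted p = 5.42e-07), and SERPINH1, the collagen chaperone, fell by 0.43 (SE 0.05, adjusted p = 6.07e-09). FICD, the enzyme that modifies BiP, fell to 4.71 ± 1.16 CPM in knockout, against 8.12 ± 0.78 CPM in control libraries (log2 -0.79, SE 0.19, adjusted p = 0.000537). Of 16 other thioredoxin-fold genes, 6 rose (37.5%), 2 fell (12.5%) and 8 did not pass. TMX2 stood at 0.29 and TXNDC5 at 0.24 (adjusted p = 6.38e-06 and 5.3e-05). The peroxidase gene GPX8 fell by 0.42 (adjusted p = 9.25e-05). Of 24 other degradation genes, 6 rose, 2 fell and 16 did not pass, and the ubiquitin-conjugating enzyme gene UBE2G2 and its membrane recruiter AUP1 rose by 0.51 and 0.43 (adjusted p = 9.82e-09 and 1.78e-08).

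**Figure D4:**
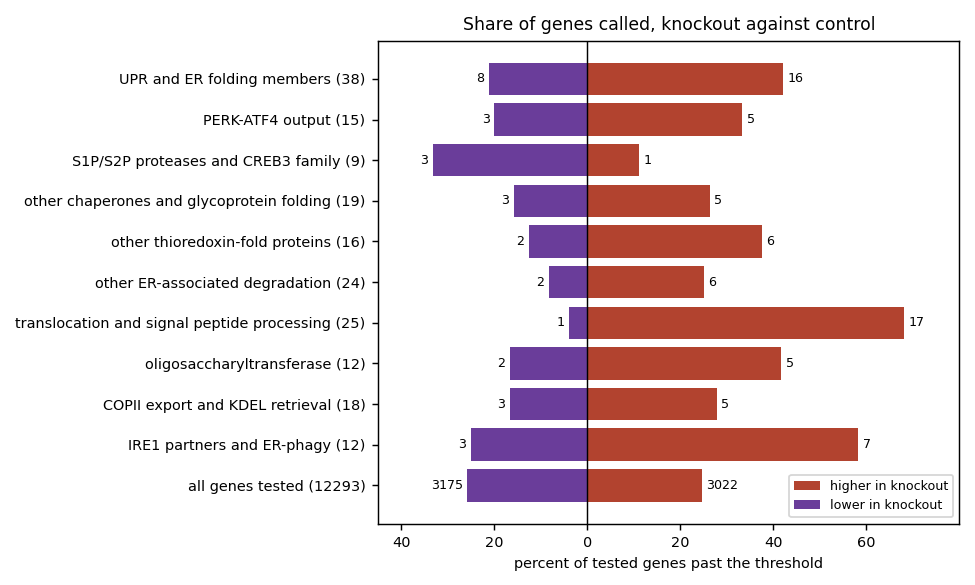
Percent of tested genes past the threshold that were higher (right of 0) or lower (left of 0) in knockout, for the members, each wider list and all tested genes, with the number tested in brackets and the number called at each bar. Translocation and signal peptide processing has 17 of 25 genes higher, and the proteases and CREB3 family 3 of 9 lower.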

How the data were processed

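RNA of 3 SDR42E1-knockout and 3 wild-type HaCaT libraries was measured. The authors deposited raw read counts per gene; the submitters' processing notes name the build GRCh38, and libraries were made with a stranded total-RNA kit, per the labels' protocols. Which aligner, counter, annotation and strand setting were used was not given in the sources used here. Values were checked to be whole numbers, and no replicate pair looked like a duplicate (chi-square over degrees of freedom 2.65 to 4.49).

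The low-count filter was filterByExpr (at least 10 counts, total 15), which kept 12293 genes. They were scaled by TMM and tested together with edgeR 4.0.16 (R 4.3.3), robust quasi-likelihood F test, two-sided, no block, Benjamini-Hochberg adjustment, threshold 0.05. Adjusted p-values of genes are from it, unless another tool is named. Positive log2 fold changes mean higher in knockout (prior count 0.125). Each SE was derived as |log2 fold change| divided by the root of its F, and CPM use TMM-scaled totals. The fits were tested on simulated data. Alternatives were DESeq2 1.42.0, limma-voom (limma 3.58.1), other scalings and filters, the replicate block and leaving out each library. The members and lists were chosen with earlier results of these data known. Values are given library by library for the sensors, XBP1, HSPA5 and the 12 other called members with the largest changes; from each wider list up to 3 genes with the smallest p in each direction were named. Positions came from GENCODE 29 (12105 of 12293 genes matched), promoters from RefSeq. Protein sequence features were planned and not run.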

Additional observations from a re-analysis of the deposited data

How the results depend on the processing

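Under the 13 alternatives, the call was the same throughout for 30 of 38 tested members, 8 crossed the threshold under at least 1, and 0 results reversed. The calls of XBP1, CALR, SYVN1 and PPP1R15B were lost under at least 1 alternative; CRELD2, HSP90B1, OS9 and CREB3L2 gained one, CRELD2 also with RLE scaling, no filter and the replicate block (adjusted p = 0.0459, 0.0463 and 0.0442). The counts of members higher and lower were 16 and 7 with DESeq2, 16 and 8 with limma-voom, and 15 to 18 and 6 to 8 when 1 library was left out. The median over the members, 0.11, or 0.108 to 3 decimals, was 0.078 with upper-quartile scaling and 0.081 to 0.144 when 1 library was left out; the cause was not tested. Without control replicate 3, 3 members changed at least 1.5-fold, ERO1A being added to ERN1 and HERPUD1. SDR42E1 ranged from -1.22 to -1.12. Deviations of libraries that share a number were uncorrelated (0.0155, -0.0889 and -0.0145), and these were treated as unpaired; the replicate block called 6425 genes against 6197 and 17 members higher and 8 lower. Upper-quartile scaling put 43.4% of all calls on the higher side, against 48.8%. Of 47 wider genes picked by rule, 38 passed under all 13 alternatives; TRIB3, SUMF2, RNF5, TUSC3, SEC24D, SEC23A, CCPG1, MAP3K5 and MOGS did not. Depth limits ERO1B, WFS1 and SYVN1 most. Protein levels and splicing were not analysed here.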

Other observations

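ER export and its turnover were read from lists not described above. Of 18 genes of COPII export and KDEL retrieval, 5 rose (27.8%), 3 fell (16.7%) and 10 did not pass, against 24.6% and 25.8% of all genes. MCFD2, a cargo receptor subunit, had 251 ± 9.75 CPM in knockout and 176 ± 5.57 CPM in control libraries (log2 0.51, SE 0.05, edgeR, adjusted p = 3.15e-11). TMED2, a cargo adaptor, and KDELR2, a receptor that returns escaped ER proteins, rose by 0.26 and 0.20. SEC24C, a coat subunit that selects cargo, fell by 0.33 (adjusted p = 2.23e-06) beside neighbours with a median of -0.18. Of 12 oligosaccharyltransferase genes, 5 rose (41.7%) and 2 fell (16.7%). Among them were the paired subunits RPN1 (log2 0.20, adjusted p = 0.000666) and RPN2 (-0.15, adjusted p = 0.00619), in opposite directions. The difference between RPN1 and RPN2 was not tested.

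Of 12 genes of IRE1 partners and ER-phagy, 7 rose, 3 fell and 2 did not pass, against 24.6% higher and 25.8% lower over all genes. In all, 83.3% of this list was called, against 50.4% of all genes. The apoptosis effector gene BAK1, whose product is known to bind IRE1, rose by 0.46 (41.7 ± 0.89 CPM in knockout and 30.4 ± 0.32 CPM in control libraries, adjusted p = 7.81e-06). Among 5 ER-phagy receptor genes, ATL3 rose by 0.33 (adjusted p = 1.62e-06), while RETREG1 fell to 4.32 ± 0.57 CPM in knockout, against 7.23 ± 0.63 CPM in control libraries (log2 -0.73, SE 0.19, adjusted p = 0.00127). CCPG1 fell by 0.22 (adjusted p = 0.0222), and TEX264 and RTN3 had values of 0.06 and -0.10 that did not pass (adjusted p = 0.667 and 0.114). The neighbours of ATL3 and RETREG1 had medians of -0.07 and 0.08.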
